A study of Mus musculus with 4 samples.

Results

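The 6 rows described here, Gm10222, Gm10925, Gm28437, Gm28438, Gm28439 and Gm28661, are predicted mouse genes that resemble genes of the mitochondrial genome but are listed as nuclear genes. They were taken by symbol from a table of 46406 rows, 1 value per gene and library, and each symbol matched exactly 1 row. They were chosen by their symbols with their high reads per length in these same 4 libraries already known, so levels and group differences are given below as a description. The libraries were ATAC-seq libraries, in which the Tn5 transposase cuts and tags accessible DNA, made from J1 mouse embryonic stem cells grown without feeder cells (passage label PN+8). There were 2 control libraries, labelled wild type, and 2 Zscan4 OE libraries, for overexpression of Zscan4, a zinc finger protein of the 2-cell embryo. The labels do not give the promoter or vector behind the overexpression, whether cells were cloned, or whether replicates came from separate cultures, so the spread between replicates may be technical.

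Mitochondria keep their own small circular genome, present in many copies per cell, which encodes subunits of the respiratory chain and of ATP synthase together with ribosomal and transfer RNAs. This DNA carries no nucleosomes, is coated by the packaging and transcription factor TFAM, and is cut freely by Tn5, so ATAC-seq libraries commonly hold mitochondrial reads unless they are removed. Pieces of the mitochondrial genome have also been copied into nuclear chromosomes during evolution. A read from a recent nuclear copy and a read from the mitochondrial genome can be nearly identical, and an aligner may place either one at either locus. The table gives no way to tell these sources apart. None of the 37 mitochondrial genome genes matched a row, by mt- symbol or by RefSeq symbol, and reads on the mitochondrial chromosome itself were not analysed here.

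A position and an annotation were at hand for only part of the 6 rows. RefSeq (GRCm38.p6) listed 2 of the 6, both as pseudogenes on chromosome 1. Gm10925 lies at 24613971 to 24614651 and carries Atp6 and mt-Atp6 among its synonyms, the names of the gene for subunit a of ATP synthase. Gm10222 lies at 24612404 to 24612700 and is 297 bases long, the RefSeq length of mitochondrial ND4L, a membrane subunit of complex I. On chromosome 1 the ends of these 2 pseudogenes are 1951 bases apart, and in the mitochondrial genome the starts of ND4L and ATP6 are 1950 bases apart. The order is reversed, with Gm10222 before Gm10925 on chromosome 1 and ND4L after ATP6 in the mitochondrial genome. The other 4 symbols had no RefSeq entry in the table used, and no gene is assigned to them.

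The deposited values themselves hold a further trace of position and length. Each is a whole number of reads divided by a feature length and a library total, and 8 totals alternate along the genome, each row starting 1 total further on than the row before it. Of 24939 neighbouring pairs of RefSeq genes in the table, 71.3% stood 1 step apart in this rotation, against 12.5% for a rotation unrelated to position. The 6 rows stood on 6 successive steps, in the order Gm28439, Gm10222, Gm28438, Gm28437, Gm10925 and Gm28661. In rotation order 2 rows thus stood between the 2 annotated pseudogenes, though their positions on a chromosome are not annotated. In the mitochondrial genome the 2 protein genes between ATP6 and ND4L are COX3 and ND3, a subunit of complex IV and one of complex I. The recovered length of Gm28438 was 345 bases, where mitochondrial ND3 has 348, and that of Gm28437 was 783, where COX3 has 784. Recovered lengths of the annotated pair were 294 for Gm10222 and 678 for Gm10925, each 3 bases under its RefSeq length. Gm28661, at 681 bases, was within 3 bases of both COX2 (684) and ATP6 (681), and Gm28439, at 876 bases, was within 3 bases of no mitochondrial gene. Lengths were thus within 3 bases of a mitochondrial gene in 5 of 6 rows, 2 of them the annotated pair. The rows were taken as ones that resemble mitochondrial genes, so this count is no independent support. How many other rows come as near to such a length was not counted. A rotation step gives a row's place only within a cycle of 8.

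The rows were among the highest of the table per unit length. RPKM below is reads per kilobase of feature and per 1000000 reads of the library's own total, after each deposited value was moved from the total it had been divided by to that of its library. By mean RPKM over the 4 libraries Gm28438 had rank 2 of 19012 rows with 20 or more reads, at 439 RPKM, behind the predicted gene Gm10800 at 990. Ranks 3 to 6 were Gm10222 at 369, Gm10925 at 220.1, Gm28437 at 199.9 and Gm28661 at 169 RPKM. Gm28439 had rank 16 at 105 RPKM. The 6 rows carried 1265, 810, 4827 and 1369 reads in control 1, control 2, Zscan4 OE 1 and Zscan4 OE 2, and no member was at 0 in any library, so all 6 passed every filter on low values.

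Library totals were 1061428 to 4899494 reads, and 9.38% to 12.8% of them fell on rows of the table. The median RPKM of rows with 20 or more reads was 0.871 to 1.18 across libraries. Of 8 embryonic stem cell markers 8 had reads in every library, and so did 8 of 8 fibroblast (feeder) markers in 3 of the 4 libraries. Reads on genes are not expression, and the cell type was not tested by them.

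The summed level split by replicate number and not by Zscan4. Per 1000000 reads of the library total (RPM), the 6 rows had 1192 reads in control 1 (exact Poisson 95% interval 1127 to 1259) and 279 in control 2 (260.1 to 299). In the overexpressing cells they had 1339 in Zscan4 OE 1 (1301 to 1377) and 279 in Zscan4 OE 2 (265 to 295). Both libraries numbered 1 were high, both numbered 2 were low, and each high library had its low counterpart in the same group. These intervals cover counting error only, since reads without molecular identifiers are not independent molecules. The group means were 735 ± 645 RPM (SD, n = 2) over the controls and 809 ± 749 over Zscan4 OE (n = 2), a ratio of 1.10 that is far inside the spread between replicates.

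The replicates of a group differed much more than the groups. Control 1 over control 2 was 4.27 (95% interval 3.91 to 4.67 from counting), and Zscan4 OE 1 over Zscan4 OE 2 was 4.79 (4.51 to 5.09). Between groups at the same number, Zscan4 OE 1 over control 1 was 1.12 (1.06 to 1.20), and Zscan4 OE 2 over control 2 was 1.002 (0.918 to 1.09). The labels do not say that a replicate number marks a shared day or batch. Leaving out 1 library set the group ratio, at 2.90 without control 1 and 0.679 without control 2. Dropping Zscan4 OE 1 gave 0.38, and dropping Zscan4 OE 2 gave 1.82.

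**Figure D1:**
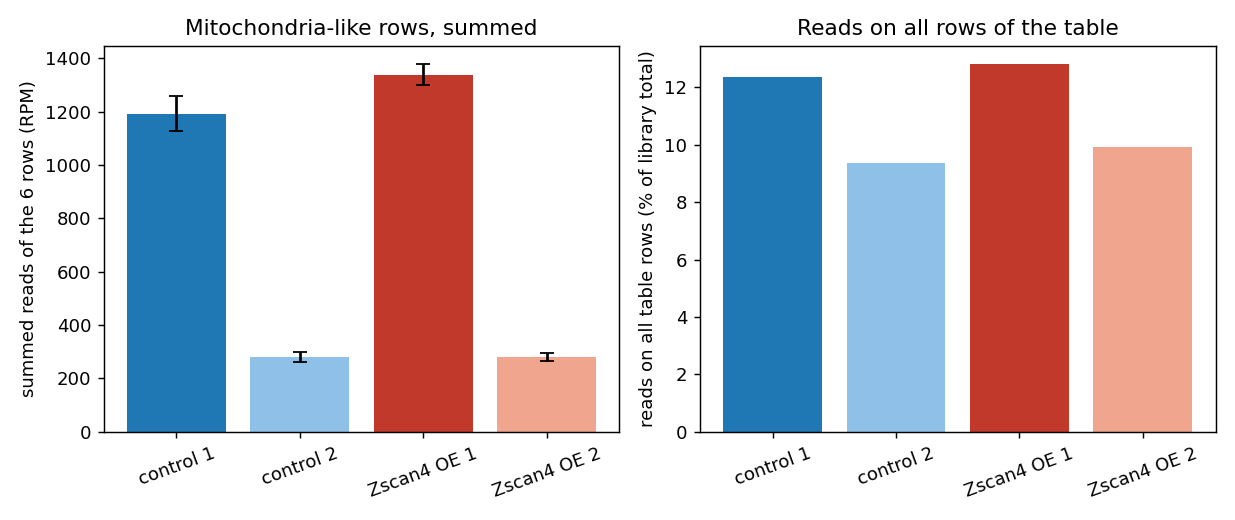
Left, summed reads of the 6 mitochondria-like rows per 1000000 reads of the library total (RPM) in each library, with exact Poisson 95% intervals; right, reads on all rows of the table as a percentage of the library total. The libraries numbered 1 stand at 1192 and 1339 RPM and those numbered 2 at 279 each, and the right panel orders the libraries the same way over a narrower range, 9.38% to 12.8%, a range kept narrow by how totals were matched to libraries.

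The share of all counted reads, on the library totals as assigned here, was also higher in both libraries numbered 1. The totals were assigned to libraries so as to make these shares as alike as possible, so their narrow range, the order of the depths and the RPM values rest on that choice. Reads on rows of the table made up 12.4% of the total in control 1 and 9.38% in control 2, while Zscan4 OE 1 had 12.8% and Zscan4 OE 2 had 9.93%. Without the 6 rows these shares were 12.2%, 9.35%, 12.7% and 9.90%, so the members made up little of that difference. On the assigned totals depth had another order, since control 1 was the shallowest library and Zscan4 OE 1 the second deepest. As a percentage of counted reads, which does not depend on any library total, the 6 rows held 0.964% in control 1 and 0.297% in control 2. The overexpressing libraries had 1.05% (Zscan4 OE 1) and 0.281% (Zscan4 OE 2). By this measure the replicates still differed 3.24-fold in controls and 3.72-fold in Zscan4 OE, and the group means of 0.631% ± 0.471 and 0.663% ± 0.540 (SD, n = 2) had a ratio of 1.05. What part the share of counted reads has in the members' levels was not tested.

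Against other rows the replicate difference was at the high end. Among 18271 other rows with 20 or more reads and none at 0, the median ratio was 1.37 for control 1 over control 2 and 1.30 for Zscan4 OE 1 over Zscan4 OE 2. The summed members lay above 95.2% of these rows in controls and above 99.3% in Zscan4 OE. Only 11 of the other rows (0.0602%) reached both ratios of the summed members. Those 11 rows had at most 122 reads over the 4 libraries, against 1034 to 1722 for each member, so their ratios carry more counting error. Among the members themselves, Gm10222, Gm28438 and Gm28439 did not reach both ratios of the sum. Gm10222 lay above 90.0% of the other rows in controls and 98.0% in Zscan4 OE, and Gm28438 above 90.9% and 97.4%. By order alone, whatever the size of the difference, both libraries numbered 1 were above both numbered 2 in 39.5% of the other rows. That share and the median ratios use RPM, so they rest on the assigned totals. They were not computed per counted read. Gm10800, the highest row of the table, went the other way, with 657 RPM in control 1 against 1249 in control 2, and 232 in Zscan4 OE 1 against 475 in Zscan4 OE 2.

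**Figure D2:**
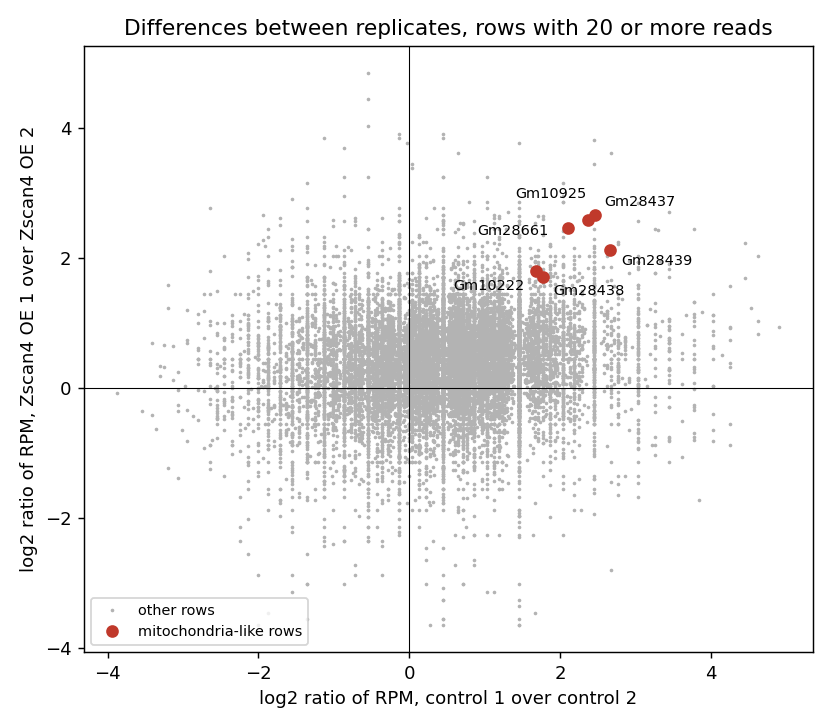
Log2 ratio of RPM between replicates for rows with 20 or more reads and none at 0, controls on the x axis and Zscan4 OE on the y axis; grey points are other rows and red points the 6 mitochondria-like rows. All 6 red points lie in the upper right, from 3.22 to 6.35 as a ratio in controls and from 3.24 to 6.31 in Zscan4 OE.

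The rows whose split over the 4 libraries was nearest to that of the summed members had few reads. The summed members had 38.6% of their summed RPM in control 1, 9.03% in control 2, 43.3% in Zscan4 OE 1 and 9.05% in Zscan4 OE 2. By Euclidean distance between such splits over 4 libraries, the nearest of 19006 other rows was Banf1, the gene of a DNA-bridging factor of the nuclear envelope, with 5, 3, 18 and 6 reads. It was followed by Isoc2a and Dnd1-ps (3, 2, 12 and 4 reads each), 3110070M22Rik (4, 2, 15 and 5) and Stkld1 (4, 3, 17 and 5). At 20 to 32 reads a row's split is loosely known. Single members lay further from their own sum, with 34 other rows nearer than Gm10925, 263 nearer than Gm10222 and 1156 nearer than Gm28438.

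RefSeq rows around the 2 annotated members on chromosome 1 had low levels. Positions of the other 4 members are unknown, so neighbours are those of Gm10222 and Gm10925 alone. The 10 RefSeq rows on each side, from Ogfrl1 to Tubb4b-ps2 and from Lmbrd1 to Gm19123, had a median of 0.891 RPKM in control 1, 1.05 in control 2, 1.08 in Zscan4 OE 1 and 0.655 in Zscan4 OE 2. Their highest value in any library was 4.76 RPKM, of the pseudogene Gm9443 in Zscan4 OE 1. The nearest RefSeq row before Gm10222 was the tubulin pseudogene Tubb4b-ps2, with 1 read in each library. The nearest RefSeq row after Gm10925 was Lmbrd1, which encodes a lysosomal cobalamin transport protein, with 11, 18, 27 and 31 reads. Pooled over their summed lengths, the 6 members stood at 326, 76.3, 366 and 76.4 RPKM in the 4 libraries. The 20 neighbours pooled the same way stood at 0.976, 0.896, 1.01 and 0.814. The members were thus 334-fold higher than these RefSeq rows in control 1 and 85.1-fold in control 2, and 364-fold higher in Zscan4 OE 1 and 93.9-fold in Zscan4 OE 2. The pooled level of the 20 rows differed little between libraries, on 74 to 285 reads each.

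**Figure D3:**
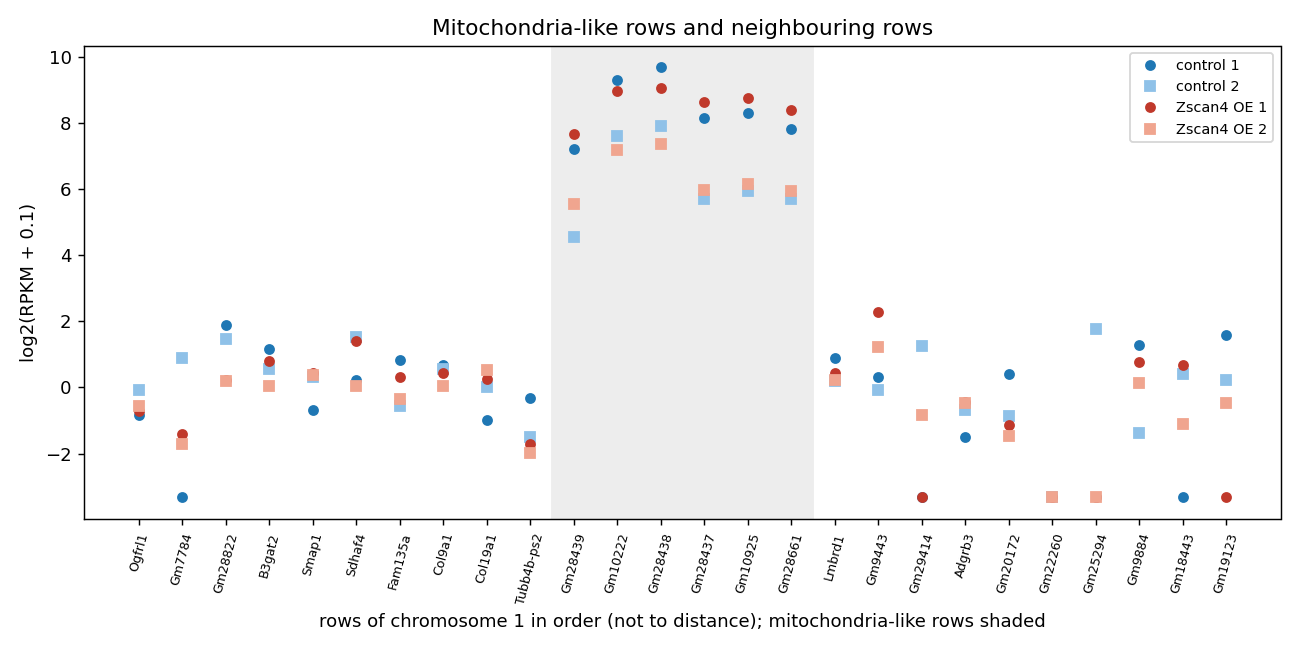
Log2(RPKM + 0.1) of the 6 mitochondria-like rows (shaded, in the order of the rotation of totals) and of the 10 RefSeq rows on each side of Gm10222 and Gm10925 on chromosome 1, with 1 point per library; the spacing is not to distance. Every member point lies above every neighbour point, whose highest value is 4.76 RPKM, and in the shaded block the libraries numbered 1 lie above those numbered 2.

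Among the members, the shortest rows had the highest levels per unit length. Gm28438 (345 bases) had 301, 241, 659 and 276 reads in control 1, control 2, Zscan4 OE 1 and Zscan4 OE 2, or 822, 241, 530 and 163 RPKM. It was the highest member in all 4 libraries, and its groups overlapped because each group held a high and a low library.

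Gm10222 (294 bases) had 198, 168, 529 and 208 reads, or 634, 197, 499 and 144 RPKM, and was second in all 4 libraries. Like Gm28438 it was lower in Zscan4 OE than in the control of the same number, 0.786 times for number 1 (0.667 to 0.931) and 0.734 times for number 2 (0.596 to 0.905). For Gm28438 these ratios were 0.644 (0.561 to 0.741) and 0.679 (0.569 to 0.81). The intervals are 95% and from counting alone. Among 18271 other rows the ratios of Gm10222 lay above 30.7% for number 1 and 21.3% for number 2. Those of Gm28438 lay above 18.5% and 17.4%, so both rows were inside the common range. These ratios use RPM and rest on the assigned totals.

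Gm10925, the Atp6-like pseudogene, had 229, 121, 1049 and 238 reads, or 318, 61.5, 429 and 71.6 RPKM. Its control 1 value was well above Zscan4 OE 2 and below Zscan4 OE 1, so the groups overlapped. Gm28437 (783 bases) had 238, 118, 1124 and 242 reads, or 286, 51.9, 398 and 63.1 RPKM. Gm28661 had 162, 103, 828 and 205 reads, or 224, 52.1, 337 and 61.4 RPKM. Both showed the order of Gm10925, with Zscan4 OE 1 highest, control 1 next and both libraries numbered 2 low.

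Gm28439, the longest member (876 bases), had 137, 59, 638 and 200 reads, or 147, 23.2, 202 and 46.6 RPKM. It was the lowest member in every library. Its Zscan4 OE value was 1.37 times the control for number 1 (1.14 to 1.66) and 2.01 times for number 2 (1.50 to 2.73). Among 18271 other rows these ratios lay above 67.5% for number 1 and 85.4% for number 2, inside their common range. The other 3 members with higher means in Zscan4 OE had ratios from 1.35 to 1.50 for number 1 and from 1.17 to 1.22 for number 2. Their counting intervals lay above 1 for number 1 but included 1 for number 2. For number 2 they were 0.933 to 1.46 for Gm10925, 0.971 to 1.53 for Gm28437 and 0.926 to 1.51 for Gm28661.

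**Figure D4:**
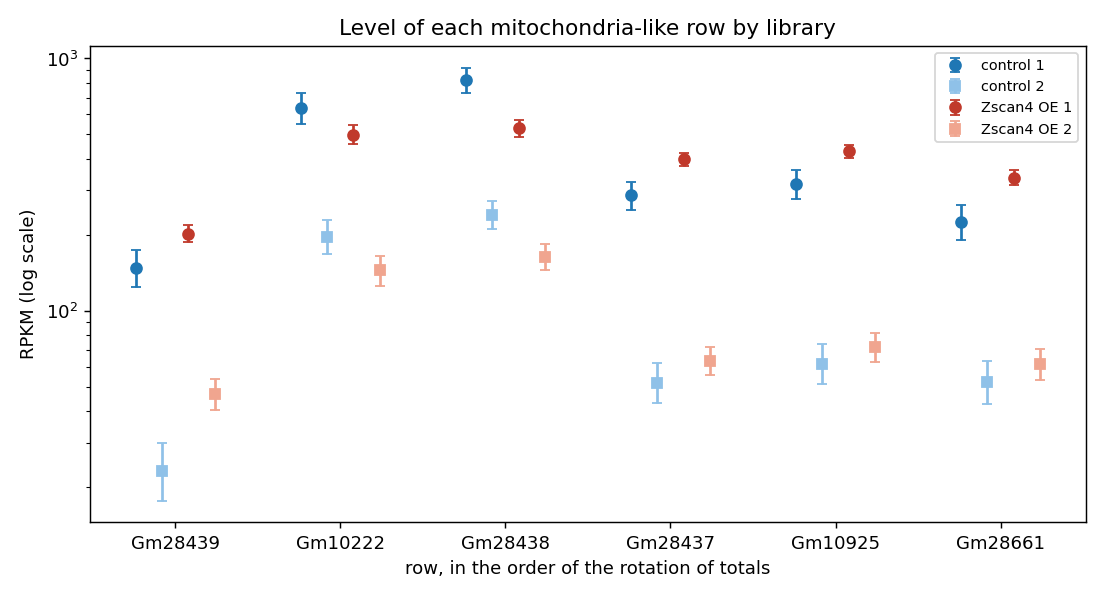
RPKM of each mitochondria-like row (log axis) in the 4 libraries, with exact Poisson 95% intervals; circles are libraries numbered 1 and squares those numbered 2, blue for control and red for Zscan4 OE. In every row both circles lie above both squares, and the levels run from 23.2 RPKM for Gm28439 in control 2 to 822 for Gm28438 in control 1.

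The size of the replicate difference was not the same in every member. In controls it ran from 3.22 for Gm10222 (2.61 to 3.98) and 3.42 for Gm28438 (2.87 to 4.06) to 5.52 for Gm28437 (4.41 to 6.94) and 6.35 for Gm28439 (4.65 to 8.77). Zscan4 OE gave 3.24 for Gm28438 (2.81 to 3.75) and 3.46 for Gm10222 (2.94 to 4.08), against 5.99 for Gm10925 (5.20 to 6.92) and 6.31 for Gm28437 (5.49 to 7.28). The 2 shortest rows thus had the smallest replicate ratios in both groups.

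The make-up of the members' reads shifted accordingly. Gm10222 and Gm28438 together held 39.4% of the reads on the 6 rows in control 1 (exact binomial 95% interval 36.7% to 42.2%) and 50.5% in control 2 (47% to 54%). They held 24.6% in Zscan4 OE 1 (23.4% to 25.9%) and 35.4% in Zscan4 OE 2 (32.8% to 38%). Both Zscan4 OE libraries were below both controls, and within each group the library numbered 1 was below that numbered 2. Gm28439 held 10.8% and 7.28% of control reads and 13.2% and 14.6% of Zscan4 OE reads, higher in both overexpressing libraries. For Gm28661 the shares were 12.8% and 12.7% against 17.2% and 15.0%. Gm10925 and Gm28437 overlapped between groups, at 14.9% to 18.1% against 17.4% to 21.7% and at 14.6% to 18.8% against 17.7% to 23.3%. The 6 shares sum to 100% in a library and depend on each other, so a fall in some goes with a rise in others. How often other sets of rows split by group in this way was not computed. The split was singled out after the values were seen. With 2 libraries against 2, an exact two-sided permutation p cannot fall below 0.333, so no test was made.

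**Figure D5:**
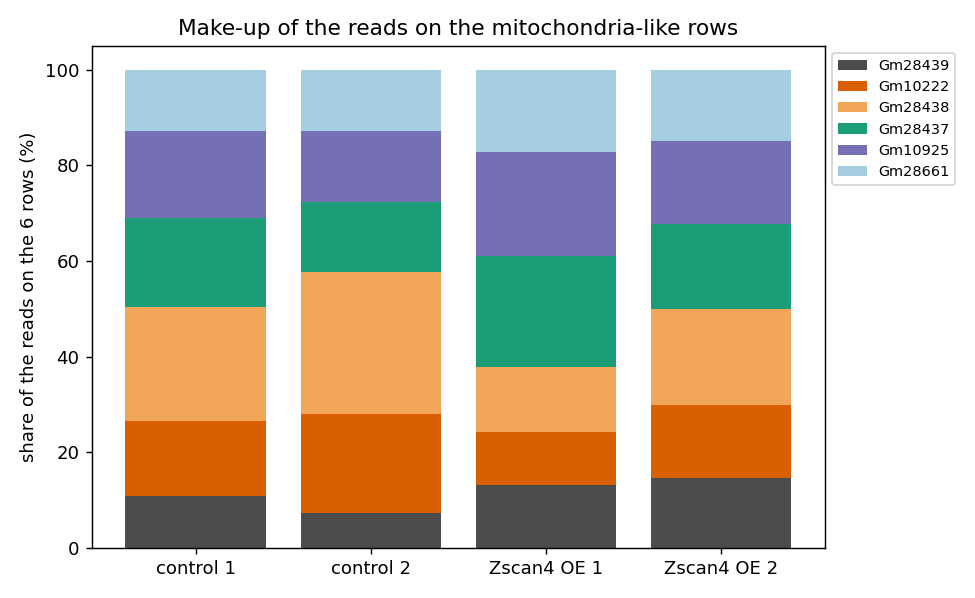
Share of the reads on the 6 mitochondria-like rows that fell on each row, per library, stacked to 100%. The orange pair, Gm10222 and Gm28438, takes 39.4% and 50.5% of control reads, and 24.6% and 35.4% of Zscan4 OE reads.

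In the fit over all rows none of the members was called between Zscan4 OE and control. With limma on log2(RPKM + 0.1), 0 of 6 members passed an adjusted p of 0.05 (Benjamini-Hochberg over 42989 rows), where 0% of all rows did, so this count says nothing particular to them. At an unadjusted p under 0.05 there were 0 members and, over all rows, 2189 higher and 573 lower. On rows with 20 or more reads limma also called 0 of 6, against 0.0263% of rows, and voom 0 of 6, against 0.00526%. No member had groups that did not overlap, against 29.7% of all rows tested. The log2 differences, Zscan4 OE minus control, were −0.60 for Gm28438, −0.40 for Gm10222, 0.33 for Gm10925, 0.38 for Gm28437, 0.41 for Gm28661 and 0.73 for Gm28439. Their standard errors from the replicates alone were 1.23 to 1.81, larger than every difference. Limma's moderated errors, whose prior variance follows a trend with the level, were 3.05 to 15.5. With no trend they were 1.03 to 1.39, and the members' adjusted p was 0.96 to 0.994 (limma). The median of the members was 0.35, where that of all rows was 0.28.

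As deposited, the values of these rows cannot be compared between libraries. Gm10222 was listed at 279, 256, 1695 and 244 RPKM, the highest deposited value of Zscan4 OE 1. On the totals as assigned here, the Zscan4 OE 1 value had been divided by 1061428, the total of control 1, in place of 3605774. That value is 499 RPKM on the total assigned to Zscan4 OE 1. By the same assignment, Gm28437 was the only member listed on the totals of its own libraries, and its 4 values did not change.

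Nuclear genes that serve the mitochondrial genome had smaller replicate ratios than the members. The 22 genes of mitochondrial DNA maintenance and transcription had 125 RPM in control 1, 86.4 in control 2, 151 in Zscan4 OE 1 and 107 in Zscan4 OE 2, replicate ratios of 1.45 and 1.41. Tfam, which packages mitochondrial DNA, had 10, 24, 40 and 39 reads, and Polg, the catalytic subunit of its polymerase, had 9, 33, 51 and 73. Log2 differences were positive for 16 of these genes and negative for 6, their median was 0.38, and none passed. Its largest statistics were those of Rnaseh1, Mterf1a and Tk2. Rnaseh1, a nuclease that removes RNA from RNA-DNA hybrids, was at 0.364, 0.4, 1.29 and 0.868 RPKM (adjusted p = 0.869, limma).

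Nuclear subunits of the respiratory chain and of ATP synthase also had smaller ratios. Complex I genes, 36 in number, had replicate ratios of 1.42 in controls and 1.52 in Zscan4 OE, and 29 positive against 7 negative differences (median 0.46). Ndufc2, Ndufs4 and Ndufa10 had the largest statistics in the list, and Ndufs4, an accessory subunit, had 3, 10, 3 and 5 reads. The 16 complex IV genes had ratios of 2.30 and 1.72, the highest of the 4 nuclear lists, on 47 to 175 reads, and 15 were tested (12 positive, 3 negative, median 0.40). Cox8b, Cox7a1 and Cox4i2, tissue-restricted isoforms, led it with 0, 0, 3 and 4 reads, 0, 1, 9 and 5 reads, and 0, 2, 4 and 7 reads. ATP synthase genes, 15 in all, had ratios of 1.58 and 1.67 and a median of −0.08, with 7 positive and 8 negative differences, led by Atp5f1, Atp5g3 and Atp5l. None of these lists had a member past the threshold (limma), with 2 higher and 1 lower in complex I, 2 higher in complex IV and 1 higher in ATP synthase at an unadjusted p under 0.05. Leaving out either Zscan4 OE library called 3 of the 104 listed genes tested (2.88%, marker lists included) higher, Ndufc2, Ndufs5 and Cox8b, with 0 reads in both controls and 1 to 4 in each Zscan4 OE library. The same fits called 10.5% of all rows higher without Zscan4 OE 1 and 9.05% without Zscan4 OE 2, a larger share than among the listed genes. Every row these fits called higher had 0 reads in both controls, which then supply the only spread, and the lone Zscan4 OE library is assumed to vary like them.

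Marker lists likewise fell short of the members' replicate ratios. Embryonic stem cell markers had 40.5, 25.5, 59.6 and 32.5 RPM in the 4 libraries, ratios of 1.59 and 1.84. Fibroblast markers had 32, 26.9, 28.8 and 26.5 RPM, ratios of 1.19 and 1.09. No gene of either list passed the threshold, with median log2 differences of 0.42 and 0.03 (limma).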

How the data were processed

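ATAC-seq values of 4 libraries were taken from 1 table of RPKM values deposited by the authors. Reads were mapped to build mm10 and counted with tools that include Bowtie2, featureCounts and Trimmomatic, per the submitters' processing notes. Versions, annotation and how duplicate, multi-mapping and mitochondrial reads were handled are not stated there. The 8 library totals were found from 2543 short RNA rows of known length, and reads, length and rotation of each row by search. Exactly 1 rotation was found for each of 38361 rows with at least 2 values above 0. Where all reads of a row share a factor with its length, both come out divided by it. Of 8 placements of the totals in rotation order, the one with the most alike share of counted reads (ratio 1.36 between libraries, others 4.17 to 10.1) was used. limma 3.58.1 in R 4.3.3 was run on log2(RPKM + 0.1), rows with a mean of at least 0.1 RPKM, with an eBayes trend. The fit was also run on simulated reads that had no replicate shift like that of the members. That check therefore does not show whether such rows could be called. Poisson and binomial intervals (SciPy 1.17.1) are exact, at 95%. A set floor of 3 reads, not a limit of these intervals, is 0.612 to 2.83 RPM. Members, lists and tests were chosen with earlier results of these data known. The genes named are the 6 members, the 3 with the largest statistic in each list, Tfam, Polg, the nearest neighbours, the 5 rows of most similar split and the 5 highest rows. Marker genes are given as lists only. Alternatives were other totals, scalings, pseudocounts, filters, voom, the replicate number as a block and each library left out.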

Additional observations from a re-analysis of the deposited data

How the results depend on the processing

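No member was called under any alternative run, namely other scalings, quantile normalization, pseudocounts of 0.01 and 1, no filter, 20 reads or more, voom, the replicate block, no variance trend (added after seeing the data) and each library left out. The log2 difference of each of the 6 changed sign when some library was left out. Under the other placements of the totals it ran from −0.208 to 1.64 for Gm10222 and from −0.408 to 1.44 for Gm28438. The lower level of this pair in Zscan4 OE thus rested on the placement. Gm10925, Gm28437, Gm28661 and Gm28439 stayed positive under every placement, at up to 2.37, 2.42, 2.45 and 2.77. The listed nuclear genes had 0 calls in all of these except without 1 library, where the count was 0 to 3. The 3 came without either Zscan4 OE library, 2.88% of listed genes against 10.5% and 9.05% of all rows. The summed ratio of 1.10 was 1.05 scaled by counted reads and 2.34 as deposited, and 0.38 to 2.90 with a library left out. It rested on the placement of the totals, at 4.64, 3.84, 3.34, 4.47 and 5.66 under placements 2 to 6 and at 1.54 at the lowest of the 7, whereas read counts and shares of counted reads do not use the placement. With the replicate number as a block the ratio was 1.06 and 0 members were called (smallest adjusted p = 0.884, limma, or 0.779 with 20 reads or more). Deviations of same-numbered libraries correlated at 0.13 over 19012 rows, and the labels do not say that numbers pair libraries. Highest over lowest library was 4.80 in RPM and 3.72 as a share of counted reads, and the median fold over neighbours was 214, 232 with 5 and 221 with 20 rows a side. Depth limits the neighbours and lists, at a few reads a gene, more than the members.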

Other observations

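One row outside the 6, Gm29216, was looked at after its values were seen, since its rotation step follows that of Gm28661. It had 30, 33, 220 and 46 reads in control 1, control 2, Zscan4 OE 1 and Zscan4 OE 2, or 28.3, 11.4, 61 and 9.39 RPM, over a recovered length of 492 bases. Both libraries numbered 1 were again above both numbered 2, at a lower level than any member. Its position is not annotated in the table used, and rotation steps repeat every 8 rows.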
